A study of Mus musculus with 23 samples.

Results

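CC chemokines are small secreted proteins with a pair of adjacent cysteines near their start, and the 10 described here are Ccl2, Ccl7, Ccl12, Ccl8, Ccl3, Ccl4, Ccl5, Ccl6, Ccl9 and Ccl24. They were taken by gene symbol from a table of 54532 mouse genes, each symbol was found once, and all 10 were among the 16545 genes kept by the low-count filter. Poly(A) RNA came from cardiac macrophages sorted magnetically as Ly6G- CD11b+ cells, that is, myeloid cells after removal of neutrophils. The study asked what Smad7, an inhibitory protein of TGF-beta signalling, does in macrophages after a heart attack.

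All mice were C57BL/6 and carried the Smad7 fl/fl allele, in which Smad7 can be cut out by the enzyme Cre. The control group, S7fl/fl, were littermates without Cre, and the MyS7KO group also carried LyzM-Cre, in which the lysozyme M promoter drives Cre in myeloid cells. This promoter is active in neutrophils and monocytes as well as macrophages, so the loss is not limited to the heart or to macrophages. Hearts were taken without infarction (baseline) or 3 or 7 days after permanent ligation of the left anterior descending coronary artery, with no reperfusion. The 23 libraries were 3 S7fl/fl and 3 MyS7KO at baseline, 5 and 5 at day 3, and 3 and 4 at day 7, respectively. The labels number the samples but do not say that each came from a separate mouse, so p-values measure only the spread between these samples.

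Chemokines set up gradients along which leukocytes move through G protein-coupled receptors. Ccl2, Ccl7 and Ccl12 act on Ccr2, the receptor that draws classical monocytes out of the bone marrow and into injured heart, Ccl8 of the mouse acts on Ccr8, Ccl3, Ccl5, Ccl6 and Ccl9 act on Ccr1, and Ccl24 (eotaxin-2) acts on Ccr3 of eosinophils. In the infarcted heart the monocyte-attracting members are known to come early, in the inflammatory phase that precedes scar formation.

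In the GRCm38 coordinates of the deposited table, 9 of the 10 genes lie on chromosome 11 in 2 blocks. Ccl2 (82035571 to 82037453), Ccl7 (82045712 to 82047525), Ccl12 (82101845 to 82103400) and Ccl8 (82115185 to 82116799) follow each other on the + strand. Further along the chromosome lie Ccl5 (83525778 to 83530518), Ccl9 (83572919 to 83578636), Ccl6 (83587882 to 83593087) and Ccl3 (83647844 to 83649355) on the - strand and Ccl4 (83662584 to 83664683) on the + strand. Ccl24 stands alone on chromosome 5 (135569937 to 135573049, - strand). All 10 positions are the same in GENCODE release 21 of GRCm38.

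The sequences below are 66-base stretches of the coding sequence around the paired cysteine codons, which stand in capitals. Stretches are shown for 8 of the 10 members, without Ccl5 and Ccl24. They are given so that neighbours with similar behaviour can be compared by eye, and were read from the GENCODE transcripts, 5′ to 3′ on the coding strand. Every stretch runs across a junction of coding exons, so the genomic interval beside it includes an intron.
Ccl2 (chr11:82035731-82036541, + strand): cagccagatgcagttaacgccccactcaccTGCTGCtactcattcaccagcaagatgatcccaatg
Ccl7 (chr11:82045850-82046573, + strand): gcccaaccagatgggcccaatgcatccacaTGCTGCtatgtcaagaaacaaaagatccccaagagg
Ccl12 (chr11:82101966-82102669, + strand): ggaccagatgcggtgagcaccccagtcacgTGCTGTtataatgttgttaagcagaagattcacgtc
Ccl8 (chr11:82115300-82116091, + strand): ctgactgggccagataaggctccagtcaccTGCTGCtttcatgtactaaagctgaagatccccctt
Ccl3 (chr11:83648622-83649208, - strand): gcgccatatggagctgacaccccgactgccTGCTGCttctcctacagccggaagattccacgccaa
Ccl4 (chr11:83662732-83663517, + strand): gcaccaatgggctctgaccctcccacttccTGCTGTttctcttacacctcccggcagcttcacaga
Ccl6 (chr11:83589356-83589763, - strand): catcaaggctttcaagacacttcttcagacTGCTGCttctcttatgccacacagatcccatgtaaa
Ccl9 (chr11:83575896-83576384, - strand): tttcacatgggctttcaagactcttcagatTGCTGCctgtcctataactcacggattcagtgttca

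The genes are related but distinct enough to be counted apart. Ccl6 and Ccl9 had the most similar coding sequences of the 45 pairs, at 70.7% identity, followed by Ccl12 and Ccl8 at 70.5%. The longest run of identical bases shared by any pair was 25 bases, in Ccl6 and Ccl9, against reads of 150 bases. None of the 75-base stretches of any member's transcripts occurred in the transcripts of another gene. Ccl6 overlaps E230016K23Rik on the opposite strand (6 to 81 counts per library, against at least 4193 for Ccl6) and Ccl2 overlaps Gm17268 (0 to 3 counts), and the labels do not say that counting used the strand.

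Total counts ran from 15479402 to 23884938 per library, and the lowest counts of any member were 62 for Ccl24 and 152 for Ccl5. Smad7 was at 53.1 to 61.2 CPM (the count scaled to the library total after TMM normalization) in S7fl/fl and 19.7 to 48.7 CPM in MyS7KO at baseline, 30.4 to 42 against 10.5 to 19.9 CPM at day 3, and 57.4 to 70.2 against 16.0 to 33.4 CPM at day 7, without overlap of the genotypes at any time. This count is over the whole gene, and its difference was not called by the test used throughout (adjusted p = 0.9988, 0.110 and 0.0702 with edgeR). The 10 macrophage markers examined summed to at least 8598 CPM in every library and 0 of them were at 0 in all libraries of a group. Such a sum does not measure purity, and markers of other cells were present too. Fibroblast markers summed to 252.5 to 5108 CPM. Endothelial markers summed to 828 to 1919 CPM at baseline and 262 to 636 CPM at day 3. Mural cell markers summed to 978 to 1678 and 116 to 224 CPM, respectively. The part of these cells in the changes from baseline to day 3 was not tested. Libraries 2 and 4 of S7fl/fl at day 3 stood apart in summed classical monocyte markers (1369 and 1744 CPM, against 683 to 842 CPM in the other 3). At day 7 all 4 MyS7KO libraries carry Xist and 0 of the 3 S7fl/fl libraries do. A difference between sexes and one between genotypes cannot be told apart there. Sex is uneven over time as well. In S7fl/fl, Xist was carried by 2 of 3 libraries at baseline, 2 of 5 at day 3 and 0 of 3 at day 7. In MyS7KO the numbers were 1 of 3, 3 of 5 and 4 of 4. Changes to day 7 within a genotype are thus not fully separate from sex. In addition, 3 libraries of day 3 hold messages of both sexes.

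The make-up of the family shifted with time after infarction. Per unit of gene length, in FPKM as the authors deposited them, the 10 genes summed to 2588 ± 669.8 FPKM (SD, n = 3) in S7fl/fl and 2540 ± 272 FPKM (n = 3) in MyS7KO at baseline, to 3132 ± 721 (n = 5) and 2893 ± 123 FPKM (n = 5) at day 3, and to 2591 ± 409.7 (n = 3) and 1736 ± 231 FPKM (n = 4) at day 7. The S7fl/fl libraries of day 7 held 2218 to 3030 FPKM and the MyS7KO libraries 1567 to 2075 FPKM, which do not overlap. The order of the members changed too. At baseline Ccl4 was the most abundant message, with 25.6 ± 2.80% of the summed FPKM in S7fl/fl and 24.6 ± 2.40% in MyS7KO. At day 3 Ccl7 took that place, with 24.5 ± 2.55% and 25.0 ± 0.874%, and Ccl6 followed with 20.2 ± 3.04% and 17.1 ± 1.63%. By day 7 Ccl4 led again, with 25.9 ± 1.48% and 28.4 ± 1.93%, and Ccl3 was second with 22.0 ± 0.958% and 27.3 ± 0.745%. By mean share, the macrophage inflammatory proteins, products of Ccl3 and Ccl4, thus gave way to the monocyte attractant Ccl7 at day 3. Ccl4 and Ccl3 led again at day 7, in both genotypes. In S7fl/fl libraries 2 and 4 of day 3, however, Ccl6 (24.23% and 22.72%) was above Ccl7 (21.57% and 22.35%). The order also depends on dividing by gene length. In CPM, Ccl6 had the highest mean at baseline (607.7 in S7fl/fl and 617.3 in MyS7KO) and at day 3 (1173 and 890). Ccl5 was a small contributor, with at most 1.67% in any library, and Ccl24 made up 2.75 ± 0.668% of the S7fl/fl sum at baseline and 0.288 ± 0.111% at day 7.

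**Figure D1:**
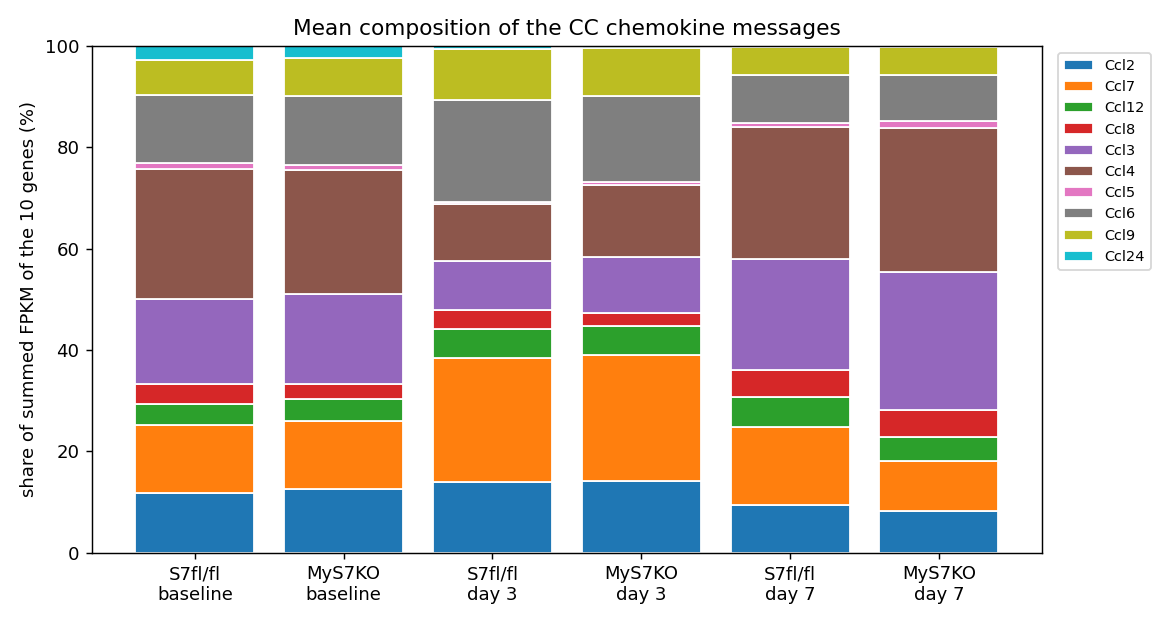
Mean share of each gene in the summed FPKM of the 10 CC chemokines (y axis, %) in the 6 groups of genotype and time (x axis), stacked to 100%. Ccl7 and Ccl6 widen at day 3, Ccl3 and Ccl4 widen at day 7, and the Ccl24 band is visible only at baseline.

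Messages of the Ccr2 ligands Ccl7 and Ccl12 rose by day 3 in both genotypes, and that of Ccl2 in S7fl/fl. Ccl7 was at 315, 398 and 150.3 CPM in the S7fl/fl libraries of baseline and at 501, 642, 479.8, 678 and 780.4 CPM in those of day 3. In MyS7KO it was at 287, 247 and 288 CPM at baseline and at 564, 619, 593, 575 and 548 CPM at day 3. Every day 3 library was above every baseline library of its genotype, and the rise was 2.14-fold in S7fl/fl (log2 1.10 ± 0.247 SE, adjusted p = 0.000601) and 2.12-fold in MyS7KO (log2 1.08 ± 0.247, adjusted p = 0.000669). All adjusted p-values are from edgeR's quasi-likelihood test, Benjamini-Hochberg adjusted over the 16545 genes, and a gene is called where the value is under 0.05.

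Ccl12, a mouse counterpart of Ccl2, rose 1.62-fold in S7fl/fl (log2 0.70 ± 0.205, adjusted p = 0.00545) and 1.47-fold in MyS7KO (log2 0.56 ± 0.204, adjusted p = 0.0212). It was at 63.6, 84.1 and 36.5 CPM in S7fl/fl at baseline and at 71.3, 104, 84.4, 129 and 108 CPM at day 3, so these groups overlap. The MyS7KO libraries held 60.8, 50.5 and 67.6 CPM at baseline and 101, 84.9, 90.2, 78.9 and 83.8 CPM at day 3, without overlap. The S7fl/fl change was 0.43 on the log2 scale without baseline library 3, and the MyS7KO call was lost without baseline library 2 (adjusted p = 0.0843).

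Ccl2, the best known monocyte attractant, rose 1.45-fold in S7fl/fl (log2 0.54 ± 0.212, adjusted p = 0.0313), from 387, 397 and 263 CPM to 339.6, 590.1, 392, 646 and 562 CPM, with overlapping groups. In MyS7KO Ccl2 was at 334, 319 and 439.5 CPM at baseline and 517, 438.5, 418, 479 and 465.5 CPM at day 3, a difference that was not called (log2 0.35 ± 0.210, adjusted p = 0.149). The Ccl2 call in S7fl/fl was weak: it was lost without baseline library 3 (adjusted p = 0.177), without any one of day 3 libraries 2 (0.0668), 4 (0.0808) and 5 (0.0594), and without libraries 2 and 4 together (log2 0.31, adjusted p = 0.233). Whether the response of Ccl2 differs between genotypes was tested as an interaction and was not called (log2 -0.19 ± 0.294, adjusted p = 0.931).

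Ccl6 and Ccl9, neighbours on chromosome 11 and the most alike in coding sequence above, moved in the same direction. Ccl6 was at 681, 592 and 550.5 CPM at baseline and 754, 1616, 803, 1543 and 1150 CPM at day 3 in S7fl/fl, a 1.93-fold rise (log2 0.95 ± 0.197, adjusted p = 0.000233). In MyS7KO it rose 1.44-fold (log2 0.53 ± 0.194, adjusted p = 0.0206), from 582, 556 and 714 CPM to 999.8, 892, 969, 795 and 793 CPM. The 2 S7fl/fl libraries highest in Ccl6 at day 3, 2 and 4, are those highest in monocyte markers, and without them the rise was 0.57 on the log2 scale and still called. The MyS7KO call of Ccl6 was lost without baseline library 1 (adjusted p = 0.0572) or 2 (0.0703). Ccl9 rose 1.83-fold in S7fl/fl (log2 0.88 ± 0.160, adjusted p = 5.61e-05) and 1.44-fold in MyS7KO (log2 0.53 ± 0.158, adjusted p = 0.00548). The Ccl9 libraries lay between 478 and 564 CPM at baseline and 722 and 1227 CPM at day 3 in S7fl/fl, and between 537 and 661 CPM and 740.3 and 988 CPM in MyS7KO. The ratio of Ccl6 to Ccl9 in FPKM stayed between 1.47 and 2.23 in all 23 libraries.

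Messages of Ccl3, Ccl4 and Ccl5, which attract monocytes and T cells, went the other way at day 3. Ccl4 fell 1.91-fold in S7fl/fl (log2 -0.93 ± 0.200, adjusted p = 0.000338), from 455, 602 and 289.9 CPM to 183, 258, 189.9, 244 and 300 CPM, and 1.51-fold in MyS7KO (log2 -0.59 ± 0.201, adjusted p = 0.0129), from 458, 361 and 415 CPM to 209, 291, 283, 260.5 and 319 CPM. Ccl3 fell 1.43-fold (log2 -0.51 ± 0.156, adjusted p = 0.00661) and 1.40-fold (log2 -0.48 ± 0.157, adjusted p = 0.0095), respectively. The S7fl/fl groups overlap for both genes and the MyS7KO groups do not. The Ccl3 call in S7fl/fl was lost without baseline library 1 (adjusted p = 0.0556) or 2 (0.0729), and without MyS7KO baseline library 1 the MyS7KO calls of Ccl3 (0.05), Ccl4 (0.0945) and Ccl5 (log2 -0.38, 0.192) were lost.

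Ccl5, which T cells and natural killer (NK) cells also make in quantity, fell 2.65-fold in S7fl/fl (log2 -1.41 ± 0.245, adjusted p = 4.12e-05) and 1.75-fold in MyS7KO (log2 -0.80 ± 0.247, adjusted p = 0.0071). It was at 44.1, 28.96 and 21.2 CPM in S7fl/fl at baseline and 9.34, 12.7, 12.1, 14.3 and 10.9 CPM at day 3, without overlap, and at 32.9, 20.7 and 14.1 CPM and 11.5, 15.4, 12.9, 9.47 and 15.2 CPM in MyS7KO, with overlap. The summed level of 9 NK cell markers was 50.1 to 139 CPM over the 6 baseline libraries and 9.39 to 20.2 CPM over the 10 libraries of day 3, with 0 of them at 0 in all libraries of a group. Among 9 T cell markers, Il7r, which other leukocytes also express, went up, from a median of 6.33 to 100.8 CPM in S7fl/fl, while the other 8, with Cd4 and the T cell receptor genes, summed to 16.6 to 31.8 CPM over the baseline libraries and 6.03 to 9.81 CPM over those of day 3. Their part in the Ccl5 change was not tested, and in bulk RNA fewer cells of a type and less RNA per cell cannot be told apart, here or in the results that follow.

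Ccl24, the eosinophil attractant, had the largest change of the 10 from baseline to day 3. It was at 82.5, 99.4 and 86.4 CPM in S7fl/fl and 75.7, 63.7 and 107 CPM in MyS7KO at baseline. At day 3 it was at 4.94, 46.8, 7.79, 54.8 and 13.8 CPM in S7fl/fl and 12.8, 12.0, 7.63, 21.3 and 3.72 CPM in MyS7KO. The fall was 3.50-fold in S7fl/fl (log2 -1.81 ± 0.590, adjusted p = 0.0123) and 7.13-fold in MyS7KO (log2 -2.83 ± 0.606, adjusted p = 0.000494), and every injured library was below every baseline library. Libraries 2 and 4 of S7fl/fl are again the high ones at day 3, and without them the fall in S7fl/fl was -3.34 on the log2 scale (adjusted p = 2.96e-05). The 7 resident cardiac macrophage markers went from a sum of 4207 to 6314 CPM at baseline to 1399 to 2445 CPM at day 3. At day 7 they summed to 581 to 1299 CPM. Such a sum need not hold for each of the 7 markers, which include Pf4. Their part in the Ccl24 change was not tested.

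**Figure D2:**
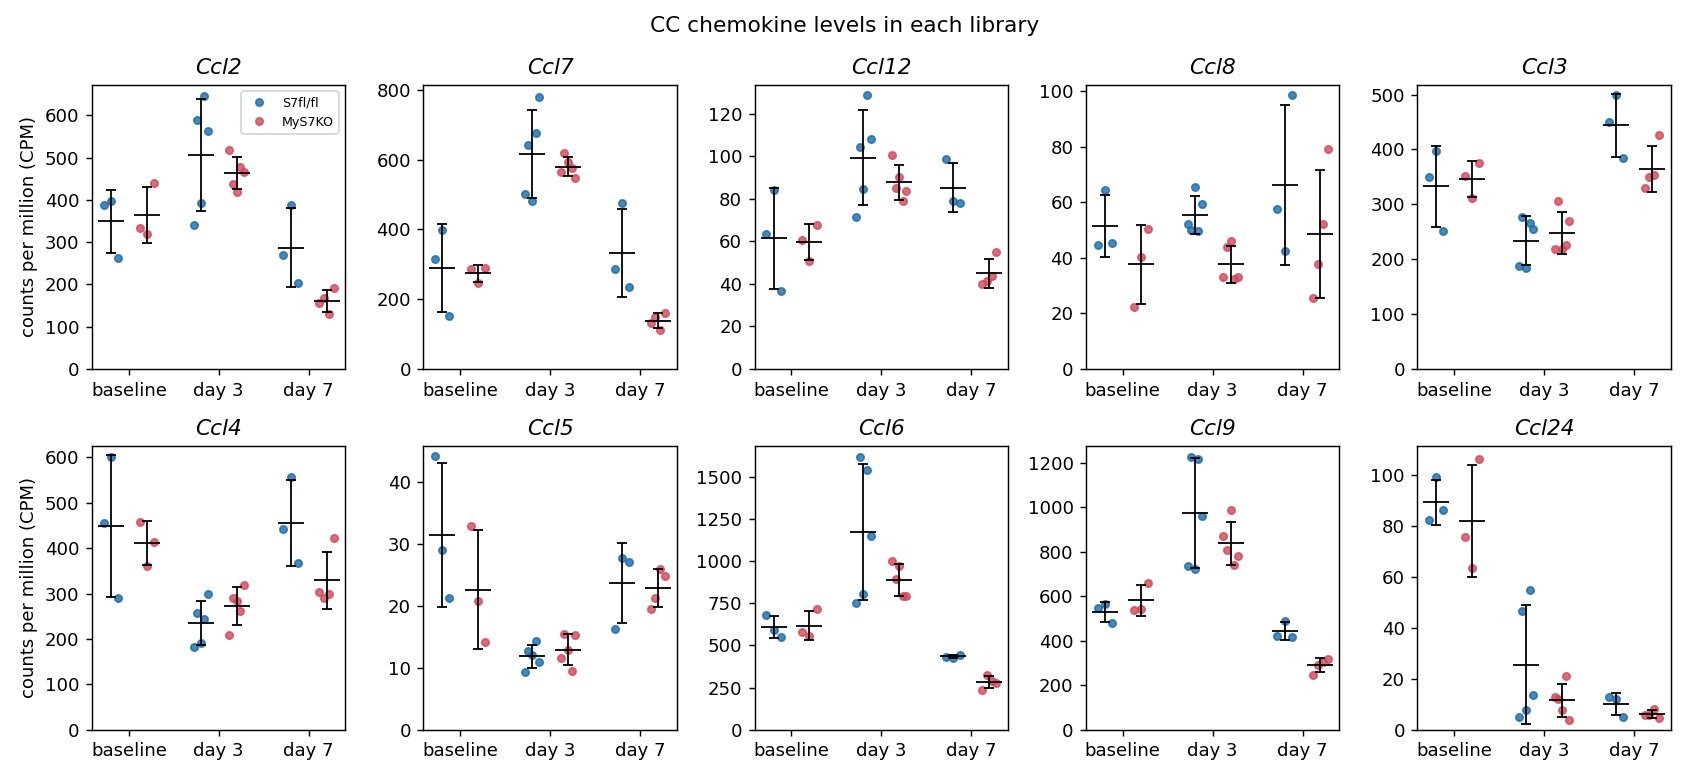
CPM (y axis, from 0) of each gene in every library of S7fl/fl (blue) and MyS7KO (red) at baseline, day 3 and day 7 (x axis), with the group mean and SD in black. Ccl2, Ccl7, Ccl12, Ccl6 and Ccl9 peak at day 3, Ccl3, Ccl4 and Ccl5 dip there, Ccl24 is high only at baseline, and Ccl8 shows neither pattern.

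Ccl8, which lies beside Ccl12 and is nearly as similar to it in coding sequence as Ccl6 is to Ccl9, was the exception. Its mean stayed between 37.7 and 66.3 CPM in the 6 groups, all neighbours in that order overlapped, and it was not called in any of the 12 comparisons. Its libraries varied most at day 7, from 42.7 to 98.5 CPM in S7fl/fl and 25.5 to 79.2 CPM in MyS7KO.

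Counted together, 5 of the 10 members rose and 4 fell from baseline to day 3 in S7fl/fl, where 29.9% of all genes tested rose and 34.1% fell. In MyS7KO 4 rose and 4 fell, against 30.7% and 35.2% of all genes. Most genes of these cells were thus called over the first 3 days, and the share of chemokines is to be read against that background. The median log2 change of the members was 0.32 in S7fl/fl and 0.18 in MyS7KO, against -0.06 and -0.10 over all genes. One MyS7KO baseline library, number 1, decides several calls, since without it 4 members remained called (Ccl7, Ccl9 and Ccl12 higher, Ccl24 lower).

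From day 3 to day 7 the directions turned. In S7fl/fl 3 members rose and 4 fell, against 11.5% and 10.1% of all genes, and in MyS7KO 2 rose and 5 fell, against 20.5% and 19.1%. Ccl6 fell 2.70-fold in S7fl/fl (log2 -1.43 ± 0.202, adjusted p = 2.52e-05), to 434, 425 and 444 CPM, and 3.16-fold in MyS7KO (log2 -1.66 ± 0.184, adjusted p = 4.53e-07), to 235, 326, 288 and 277 CPM. Ccl9 fell 2.20-fold (log2 -1.13 ± 0.162, adjusted p = 2.78e-05), to 421, 490 and 417 CPM, and 2.89-fold (log2 -1.53 ± 0.149, adjusted p = 7.79e-08), to 248, 291, 302 and 318 CPM. For both genes every day 7 library lay below every day 3 library of its genotype.

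Ccl7 fell 1.86-fold in S7fl/fl (log2 -0.89 ± 0.245, adjusted p = 0.0119), to 287, 474 and 235 CPM, and 4.19-fold in MyS7KO (log2 -2.07 ± 0.232, adjusted p = 8.99e-07), to 132, 149, 112 and 159.8 CPM. Ccl2 fell 1.76-fold (log2 -0.82 ± 0.214, adjusted p = 0.00819), to 269, 388 and 203 CPM, and 2.88-fold (log2 -1.52 ± 0.199, adjusted p = 4.14e-06), to 155, 169, 129.7 and 191 CPM. Both S7fl/fl calls were lost without libraries 2 and 4 of day 3 (adjusted p = 0.053 for Ccl7 and 0.0713 for Ccl2) and without library 4 of day 7 (0.0842 and 0.0684), and the Ccl7 call also without library 2 of day 7 (0.0725). Ccl12 fell in MyS7KO (1.95-fold, log2 -0.96 ± 0.189, adjusted p = 0.00035) and was not called in S7fl/fl (log2 -0.22 ± 0.201, adjusted p = 0.478), and the difference between these changes was not called (log2 -0.74 ± 0.272, adjusted p = 0.442).

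Ccl3 and Ccl5 rose again by day 7. Ccl3 was at 449.8, 499 and 384 CPM in S7fl/fl, a 1.90-fold rise over day 3 (log2 0.93 ± 0.156, adjusted p = 0.000157), and at 330.1, 349, 353 and 426 CPM in MyS7KO, a 1.47-fold rise (log2 0.56 ± 0.145, adjusted p = 0.0036), without overlap of the times in either genotype. Ccl5 rose 2.00-fold in S7fl/fl (adjusted p = 0.00581) and 1.77-fold in MyS7KO (adjusted p = 0.00697). Ccl4 rose 1.94-fold in S7fl/fl (log2 0.95 ± 0.200, adjusted p = 0.00148) and was not called in MyS7KO (log2 0.27 ± 0.186, adjusted p = 0.257), where the day 7 libraries held 304, 291, 299.9 and 423 CPM. The genotypes' difference in this change of Ccl4 was -0.68 ± 0.276 on the log2 scale and was not called (adjusted p = 0.447).

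Against baseline, 1 member was called at day 7 in S7fl/fl, Ccl24, which was lower (8.91-fold, log2 -3.16 ± 0.740, adjusted p = 0.00176), and no member was higher, where 25.4% of all genes were lower and 24.8% higher. Without S7fl/fl baseline library 2 there were 3 (Ccl12, Ccl24 and Ccl3), and without S7fl/fl day 7 library 4 there were 2 (Ccl24 and Ccl3). With a term for sex in the fit there were also 3 in S7fl/fl (Ccl12 and Ccl3 higher, Ccl24 lower). In MyS7KO 5 members were lower and 0 higher, against 21.8% and 22.2%. They were Ccl24 (13.2-fold), Ccl2 (2.26-fold, log2 -1.18 ± 0.217, adjusted p = 0.000173), Ccl6 (2.19-fold), Ccl9 (2.00-fold) and Ccl7 (1.98-fold, log2 -0.99 ± 0.247, adjusted p = 0.00293). For these 5 genes every MyS7KO library of day 7 lay below every MyS7KO library of baseline, which was so for 22.5% of all genes. In S7fl/fl the same comparison gave log2 values of -0.28 ± 0.233 for Ccl2, 0.21 ± 0.265 for Ccl7, -0.48 ± 0.214 for Ccl6 and -0.26 ± 0.174 for Ccl9, none called, and the difference between genotypes in this change was not called for any of the 4 (adjusted p = 0.877 for each).

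**Figure D3:**
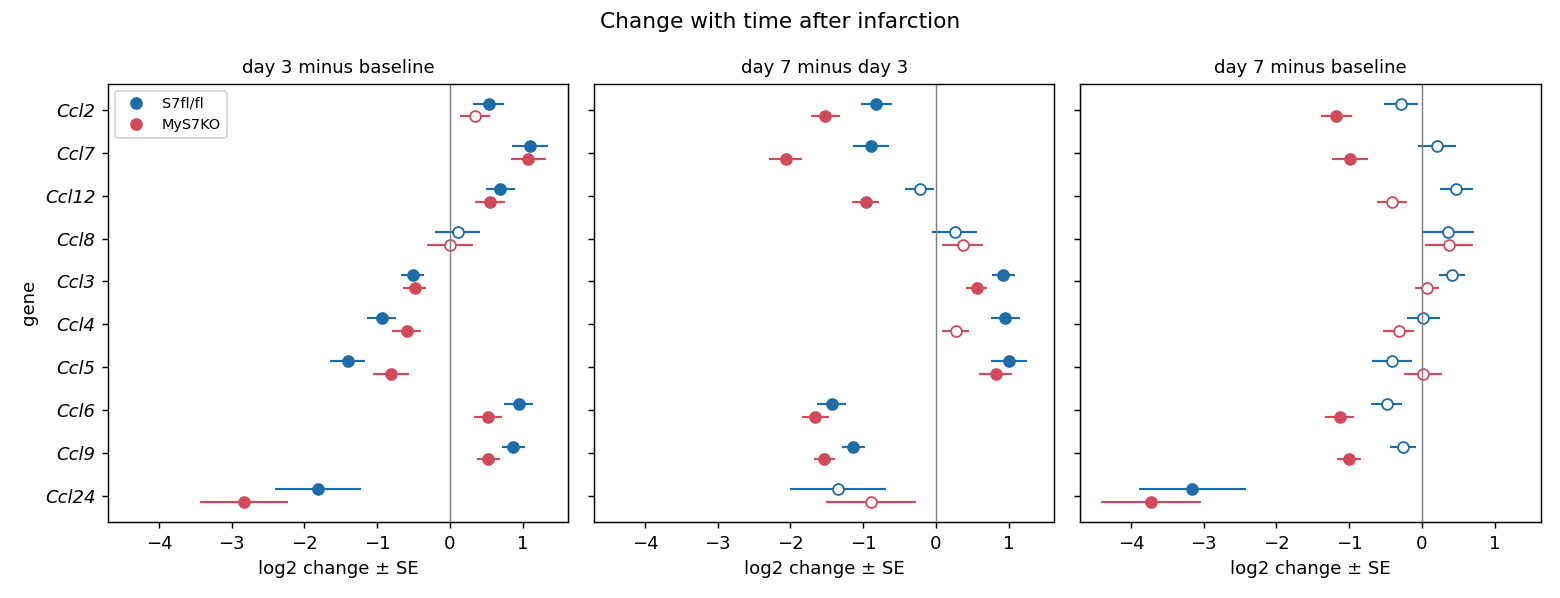
Log2 change with its standard error (x axis) of each gene (y axis) in S7fl/fl (blue) and MyS7KO (red) between the times named above each panel. Filled points were called at an adjusted p under 0.05 and open points were not, and at day 7 against baseline 5 red points and 1 blue point are filled.

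Between genotypes no member was called at any time. At baseline 0 of 10 passed, against 0.0121% of all genes, and the log2 differences, MyS7KO minus S7fl/fl, ran from -0.48 (Ccl5) to 0.13 (Ccl9) with 0 members at an unadjusted p under 0.05. At day 3 again 0 passed, against 0.0121% of all genes, with differences from -1.15 (Ccl24) to 0.21 (Ccl4) and 1 member, Ccl6, at an unadjusted p under 0.05. The Ccl24 and Ccl6 values rest on S7fl/fl libraries 2 and 4, the pair high in monocyte markers: without both, the difference was 0.38 ± 0.441 for Ccl24, in the opposite direction, and -0.02 ± 0.138 for Ccl6 (-0.40 ± 0.165 with them). Ccl8 was the 1 member whose groups did not overlap at day 3, with 32.5 to 46.0 CPM in MyS7KO below 49.8 to 65.7 CPM in S7fl/fl, as was so for 0.284% of all genes (log2 -0.55 ± 0.273, adjusted p = 0.982).

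At day 7 all 10 members had a negative log2 difference, as did 50.98% of all genes, and none passed, against 0.0181% of all genes. Their median was -0.62, against -0.01 over all genes. For 5 members (Ccl2, Ccl7, Ccl12, Ccl6 and Ccl9) every MyS7KO library was below every S7fl/fl library, which was so for 5.63% of all genes, and 6 members had an unadjusted p under 0.05, with 2173 of all genes. DESeq2 called 2 members, Ccl7 (adjusted p = 0.00112) and Ccl12 (0.0209), where it called 0.375% of all genes.

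The Ccr2 ligands had the largest differences at day 7. Ccl7 was at 287, 474 and 235 CPM in S7fl/fl and at 132, 149, 112 and 159.8 CPM in MyS7KO, a 2.40-fold lower mean that was not called (log2 -1.26 ± 0.247, adjusted p = 0.0872). It passed with a sex term in the fit, which at day 7 rests on the sex difference at the other times (log2 -1.62, adjusted p = 0.0359), without MyS7KO library 3 (adjusted p = 0.0445) and without S7fl/fl library 4 (adjusted p = 0.0265). Ccl12 was at 98.6, 79.1 and 78.0 CPM in S7fl/fl and 39.9, 41.3, 43.7 and 54.8 CPM in MyS7KO (log2 -0.92 ± 0.209, adjusted p = 0.159), and Ccl2 differed by -0.83 ± 0.217 (adjusted p = 0.244), or by -0.55 without S7fl/fl library 3. Ccl8, from the same block of genes, differed by -0.45 ± 0.325 (adjusted p = 0.5677), with overlapping groups, and its size rested on single libraries: it was -0.04 without S7fl/fl library 4, -0.23 without MyS7KO library 1, -0.68 without S7fl/fl library 3 and -0.79 without MyS7KO library 5.

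Ccl6 and Ccl9 differed by -0.62 ± 0.199 (adjusted p = 0.2745) and -0.61 ± 0.162 (adjusted p = 0.244). The S7fl/fl libraries of Ccl6 lay within 425 to 444 CPM and the highest MyS7KO library was at 326 CPM. For Ccl3, Ccl4 and Ccl5 the differences were smaller: Ccl4 -0.47 ± 0.212 (adjusted p = 0.365), Ccl3 -0.28 ± 0.165 (adjusted p = 0.4597) and Ccl5 -0.05 ± 0.260 (adjusted p = 0.954), all with overlapping groups. The Ccl4 difference ran from -0.61 to -0.30 with a library left out, the latter without S7fl/fl library 3. The Ccl4 overlap rested on MyS7KO library 5, at 423 CPM. Libraries 1, 3 and 4 of MyS7KO held 291 to 304 CPM, below every S7fl/fl library (366.5 CPM or more). With a sex term the differences of Ccl4, Ccl3, Ccl5 and Ccl8 were -0.85, -0.57, -0.46 and -0.28, none called. Ccl24 differed by -0.69 ± 0.690 (adjusted p = 0.696), at levels of 4.73 to 12.9 CPM in both genotypes.

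The levels of other cells' markers at day 7 stand beside these differences. Summed classical monocyte markers were at 491 to 712.5 CPM in S7fl/fl and 269.8 to 627 CPM in MyS7KO, resident cardiac macrophage markers at 999.6 to 1299 and 581 to 1084 CPM, and fibroblast markers at 1290 to 3411 and 1779 to 5108 CPM, all overlapping. Endothelial markers were at 192 to 384 CPM (median 228) in S7fl/fl and 158.5 to 993 CPM (median 498) in MyS7KO, and mural cell markers at 78.7 to 237.5 (median 80.9) and 62.9 to 508 CPM (median 266), also overlapping. T cell markers did not overlap, at 63.9 to 105 CPM in S7fl/fl and 107 to 126 CPM in MyS7KO, nor did they without Il7r, at 12.1 to 19.8 and 19.9 to 26.6 CPM. In these 6 lists 0 markers were at 0 in all libraries of a group at day 7, and the part of such cells in the chemokine differences was not tested.

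**Figure D4:**
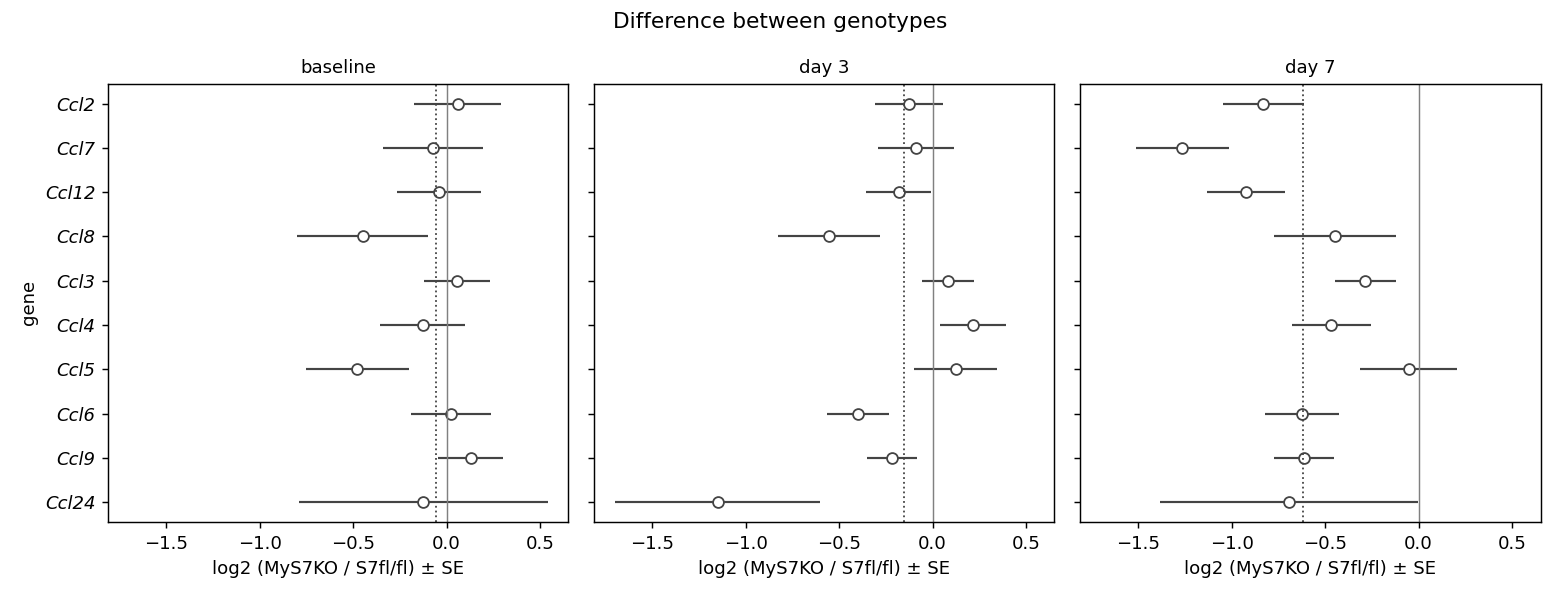
Log2 difference between MyS7KO and S7fl/fl with its standard error (x axis) for each gene (y axis) at baseline, day 3 and day 7, with the median of the 10 genes dotted. All points are open because no difference was called, and at day 7 all 10 lie below 0, with a median of -0.62.

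Whether the genotype difference itself changed with time was tested for each gene as an interaction. No member was called for day 3 against baseline, day 7 against baseline or day 7 against day 3, where 0, 0 and 0% of all genes were called with edgeR. At an unadjusted p under 0.05 there were 0, 5 and 4 members and 741, 862 and 1726 genes in all. DESeq2 likewise called 0 members in each. The largest was that of Ccl7 between baseline and day 7, at -1.19 ± 0.363 (adjusted p = 0.877).

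Ccr1, Ccr2 and Ccr3 rose after infarction in both genotypes, while Ccr8, the receptor of Ccl8, was too low to test. Of 12 CC chemokine receptor genes tested, 6 rose and 3 fell from baseline to day 3 in S7fl/fl, and 7 rose and 2 fell in MyS7KO, where 29.9% and 30.7% of all genes rose and 34.1% and 35.2% fell. Ccr2 was at 85.7 to 119 CPM in S7fl/fl at baseline and 285 to 482 CPM at day 3, a 3.58-fold rise (log2 1.84 ± 0.170, adjusted p = 4.33e-09), and rose 3.53-fold in MyS7KO (adjusted p = 4.72e-09). Ccr1 rose 5.29-fold and 4.92-fold, and Ccr7, which guides cells to lymph nodes, 4.96-fold and 7.29-fold. Thus Ccr1 rose at the time at which its ligands Ccl3 and Ccl5 fell and its ligands Ccl6 and Ccl9 rose.

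From day 3 to day 7 the main receptors of the monocyte attractants and of Ccl6 and Ccl9 fell in MyS7KO. Ccr1 fell 2.71-fold from day 3 (log2 -1.44 ± 0.269, adjusted p = 0.000287) and Ccr2 1.67-fold (log2 -0.74 ± 0.146, adjusted p = 0.00034), while in S7fl/fl Ccr1 (log2 -0.68 ± 0.289, adjusted p = 0.101) and Ccr2 (log2 -0.23 ± 0.158, adjusted p = 0.3196) were not called. Ccrl2, an atypical receptor that does not signal like the others, rose 2.26-fold in S7fl/fl and 1.88-fold in MyS7KO. Of the 12, 0 were called between genotypes at any time and 0 in the interactions. At day 7 the differences were -1.03 ± 0.349 for Ccr3, -0.86 ± 0.294 for Ccr1 and -0.70 ± 0.163 for Ccr2. The Ccr2 libraries did not overlap at day 7, at 279.8 to 321 CPM in S7fl/fl and 139 to 212 CPM in MyS7KO. Ccr2 is also one of the 8 classical monocyte markers above.

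**Figure D5:**
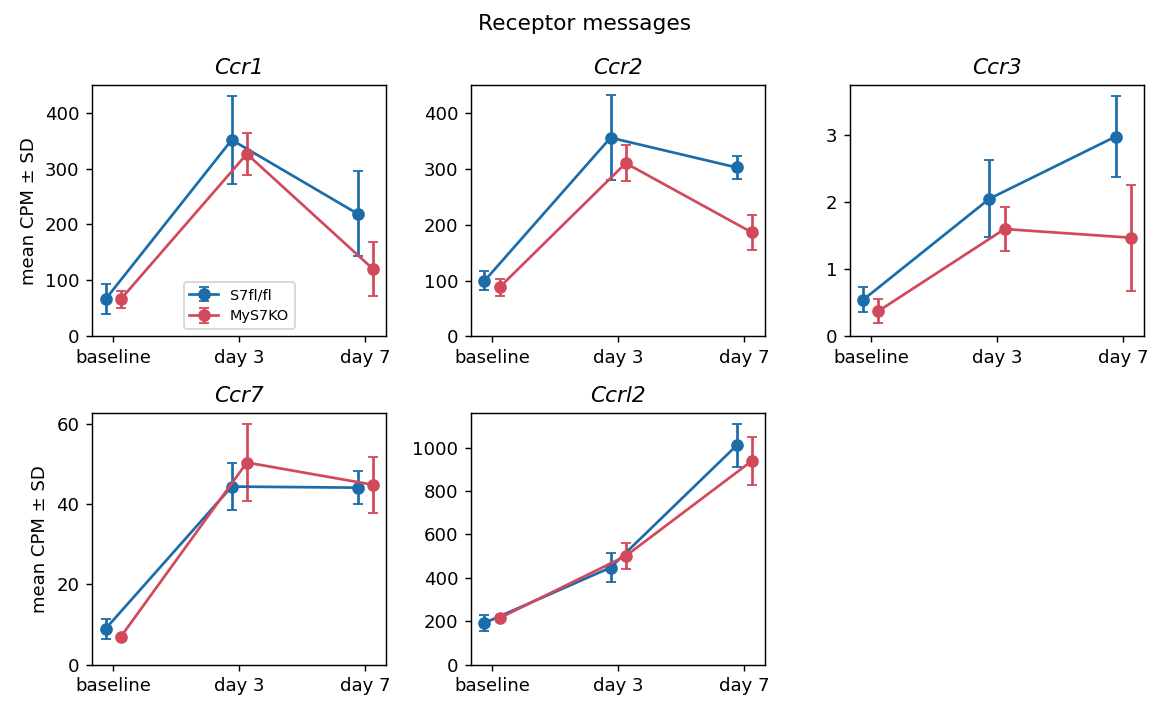
Mean CPM with SD (y axis, from 0) of 5 receptor genes in S7fl/fl (blue) and MyS7KO (red) at baseline, day 3 and day 7 (x axis). Ccr1, Ccr2 and Ccr3 are several-fold above baseline at day 3, and their red points lie below the blue ones at day 7, differences that were not called.

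The rest of the CC chemokine family was low in these cells. Of 11 further genes 6 were tested, and Ccl22, a ligand of Ccr4, was the highest of them with group means of 13.1 to 19.3 CPM. From baseline to day 3, 0 of the 6 rose and 4 fell in S7fl/fl, and 1 rose and 4 fell in MyS7KO. Of all genes tested, 29.9% rose and 34.1% fell in S7fl/fl, and 30.7% rose and 35.2% fell in MyS7KO. Ccl17, the other Ccr4 ligand, fell 3.42-fold in S7fl/fl (adjusted p = 2.2e-06) and 1.55-fold in MyS7KO (adjusted p = 0.0281).

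Genes that induce or shape chemokine messages were called over time in both genotypes. Of 11 inducing cytokine genes tested, 4 rose and 4 fell by day 3 in each genotype, near the shares of all genes (29.9% and 34.1% in S7fl/fl, 30.7% and 35.2% in MyS7KO). Tnf, whose product induces many chemokines, was at a mean of 340.4 CPM at baseline, 265 CPM at day 3 and 461 CPM at day 7 in S7fl/fl, and 406, 249 and 356 CPM in MyS7KO. It rose from day 3 to day 7 by 1.74-fold (adjusted p = 0.00336) and 1.43-fold (adjusted p = 0.0206), respectively, the same direction as Ccl3. Among 24 transcription regulators 7 rose and 10 fell by day 3 in S7fl/fl and 6 and 9 in MyS7KO, also near those shares, among them falls of the AP-1 subunits Atf3 (6.49-fold and 5.70-fold) and Jun (7.77-fold and 7.17-fold). From day 3 to day 7, 10 and 12 of these regulators rose and 0 fell, where 11.5% and 20.5% of all genes rose and 10.1% and 19.1% fell.

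Messages that restrain chemokines rose from day 3 to day 7 in part. Zc3h12a, which encodes an RNase that degrades inflammatory messages, rose 1.67-fold from day 3 to day 7 in S7fl/fl (adjusted p = 3.16e-05) and 1.64-fold in MyS7KO (adjusted p = 7.33e-06), among 6 and 7 of 12 brake and mRNA decay genes that rose and 1 and 1 that fell, beside the 11.5% and 20.5% of all genes that rose. Of 8 proteases able to clip or modify chemokines, 6 rose and 1 fell by day 3 in both genotypes, with Mmp14 up 11.2-fold and 14.5-fold. In the list of 14 genes of chemotactic signalling 10 rose and 1 fell in S7fl/fl and 9 rose and 2 fell in MyS7KO by day 3, among them Pik3r5, a regulatory subunit of the kinase used by chemokine receptors (3.98-fold and 3.25-fold). By day 3, 29.9% and 30.7% of all genes rose. Between genotypes 0 genes of these 5 lists were called at any time.

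Over the 23 libraries, likeness between members did not always follow their order on the chromosome. On the log2 CPM scale, Pearson's r was 0.99 for Ccl6 and Ccl9, 0.92 for Ccl2 and Ccl7, 0.94 for Ccl2 and Ccl9 and 0.88 for Ccl3 and Ccl4, but 0.25 for Ccl12 and Ccl8 and -0.59 for Ccl6 and Ccl3, which follow each other among the members. These values are descriptions over libraries that fall into 6 groups and so are not independent. Among 11149 further genes whose log2 CPM averaged 1 or more, the genes most alike were Pf4, Etv5 and Snx2 for Ccl2 (r of 0.93, 0.93 and 0.91), Tagln2, S100a10 and Hmox1 for Ccl7 (0.93, 0.91 and 0.91), and Tnf, Neurl3 and Cd82 for Ccl3 (0.92, 0.86 and 0.86). Pf4, which is also 1 of the 7 resident cardiac macrophage markers summed above, was the first for Ccl9 too (0.95). Mmp13, Tppp3 and Cd164 were the most alike for Ccl24 (0.90, 0.89 and 0.88). For Ccl8 no gene passed 0.69 (Nosip).

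The promoters of Ccl9 and Ccl6, the pair most alike across the libraries, were compared in the 120 bases before the start of the gene. They are from RefSeq on GRCm38.p6, 5′ to 3′ on the strand of the gene, and capitals mark matches to AP-1 (TGANTCA) and to the NF-kappaB consensus.
Ccl9 (chr11:83578637-83578756, - strand): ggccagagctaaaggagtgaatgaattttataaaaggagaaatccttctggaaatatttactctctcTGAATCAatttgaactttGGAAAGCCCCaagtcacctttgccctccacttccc
Ccl6 (chr11:83593088-83593207, - strand): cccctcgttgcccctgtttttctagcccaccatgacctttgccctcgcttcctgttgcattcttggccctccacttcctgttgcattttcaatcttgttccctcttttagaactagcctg

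In Ccl9 the AP-1 match lay at -53 to -47 and the NF-kappaB match at -35 to -26 from the start, and the matches do not overlap. RefSeq promoters of 250 bases before to 50 bases after the start were matched for 5 members (Ccl12, Ccl8, Ccl3, Ccl6 and Ccl9), and 1 of the 5 held each motif, on either strand, against 11.2% of 32851 promoters for NF-kappaB and 7.81% for AP-1. C/EBP (TTGCNNAA, 10.8%), GAS (TTCNNNGAA, 8.3%), the STAT6 site (6.95%), the ISRE core (3.44%) and the palindromic Smad box (GTCTAGAC, 0.21%) were in 0 of the 5. A match is a stretch of letters, and Ccl6 held none of these in the window searched. Sequence outside the windows was not searched, and the part of any motif in the changes was not tested.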

How the data were processed

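The authors deposited read counts per gene and FPKM for 23 libraries. Per the submitters' processing notes TopHat2 2.0.9, Cufflinks 2.1.1 and HTSeq 0.6.1 were used with mm10 and GRCm38.p6; which tool made which value, and strandedness, are not given in the sources used here. The deposited FPKM equalled count over gene length over 1 constant per library. Counts were tested with edgeR 4.0.16 (R 4.3.3): TMM scaling, filterByExpr, robust quasi-likelihood models of all 6 groups at once, two-sided, adjusted by Benjamini-Hochberg and called at 0.05. SE is the log2 change divided by the square root of F. The fit was tested on simulated data. Alternatives were RLE scaling, no filter, DESeq2 1.42.0, limma 3.58.1 (voom with quality weights, or log2(FPKM + 1) and log2(FPKM + 0.1)), a replicate block, a sex term, subsets of the libraries and each library left out. Within-group libraries all differed beyond sampling noise (ratio of chi-square to degrees of freedom 9.34 to 56.6). The members and gene lists were chosen with earlier results of these data known. Named are all members, at most 3 called genes per list and comparison, and, chosen after their values were seen, 3 receptors of the members and single examples from the lists.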

Additional observations from a re-analysis of the deposited data

Results flagged for a closer look

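In MyS7KO at day 7, library 5 held 423 CPM of Ccl4 while the other 3 held 291 to 304 CPM, a gap of 0.905 of the group's range and the 1 flag among 30 groups of 4 or 5 libraries checked, where chance gives about 1 in 20.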

How the results depend on the processing

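Of the members' called changes, all day 7 genotype differences and those of Ccl4, Ccl6, Ccl8 and Ccl24 at day 3, 948 values under the alternatives kept direction and side of the threshold, 30 lost the call, 5 gained it and 4 turned direction. The count of members called between genotypes at day 7 was 0; it was 2 with DESeq2, 1 with the sex term and 0 to 1 with each library left out. Day 7 against baseline in S7fl/fl gave 1 call, but 2 with DESeq2, 2 with voom, 3 with the sex term, 2 without mixed-sex libraries, 2 with only the groups compared, and 1 to 3 with a library left out. Day 3 against baseline in MyS7KO gave 8, and 4 to 8 with a library left out. The day 7 genotype difference of Ccl5 ran from -0.26 to 0.07 with a library left out, turning positive without MyS7KO library 1 (0.02) or S7fl/fl library 3 (0.0745) or 4 (0.05). The causes of these changes were not tested. The labels do not say that same-numbered libraries form pairs, and they were not treated as such. Their deviations from group means had r from -0.30 to 0.26 over 44 pairs. With no values for differently numbered libraries beside it, this range cannot decide whether the numbers mark a pairing. With the replicate block 8 members were called at day 3 in S7fl/fl, 7 in MyS7KO, and 0 between genotypes at any time. Leaving out S7fl/fl libraries 2 and 4 of day 3 together was chosen after seeing the data: 8 members were called against baseline and 5 for day 7 against day 3, and the day 3 genotype difference of Ccl24 turned to 0.38. The Ccl24 call at day 3 in S7fl/fl was lost with only the groups compared (adjusted p = 0.0837). Ccl24 had the lowest count of any member, 62 in its lowest library, and it also spread widely at day 3, from 4.94 to 54.8 CPM in S7fl/fl.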
